A study of Rattus norvegicus with 12 samples.

Results

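The miR-148 and miR-152 genes, a small microRNA family, were followed in liver of male rats of the outbred Sprague-Dawley stock after oral dosing with caffeine and dextromethorphan. Members were chosen by the number in the gene name, with any letter after it, and 3 of the 444 features of the deposited table, of which 432 are microRNA genes, were found: Mir148a, Mir148b and Mir152. The rats were bought at 6 weeks of age, were 7 weeks old at dosing and were dosed on 5 consecutive days in groups of 5, and the liver was taken 1 h after the last dose. The CAF+DEX group received caffeine at 120 mg/kg with dextromethorphan hydrobromide monohydrate at 100 mg/kg, the CAF group caffeine at 120 mg/kg, the DEX group dextromethorphan hydrobromide monohydrate at 100 mg/kg, and the Control group the sterile distilled water in which the drugs were dissolved. MicroRNA was sequenced in 3 libraries of each group, 12 in all. The labels do not say which rat each library came from, so the p-values below rest on the spread between libraries, which may be technical.

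A microRNA is cut from a hairpin precursor, is loaded into an Argonaute protein and pairs through its seed, bases 2 to 8, with sites in messenger RNAs, which lowers their translation and stability. MicroRNAs with one seed can share targets. In human liver cells miR-148a has been reported to act on the transcript of PXR (gene Nr1i2 in the rat), the nuclear receptor that senses foreign compounds and switches on cytochrome P450 genes of drug metabolism, and in human and mouse work miR-148a, miR-148b and miR-152 have been tied to transcripts of DNA methyltransferases and, for miR-148a, to those of the LDL receptor and the cholesterol exporter ABCA1. Caffeine, an adenosine receptor antagonist, and dextromethorphan, a cough suppressant, are both cleared by P450 enzymes. No messenger RNA was measured in these libraries, so the levels of PXR or other targets are not analysed here.

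The 3′ arms of the members are printed to show what the family has in common and where it differs (RefSeq, GRCr8; capitals mark the seed).
rno-miR-148a-3p: uCAGUGCAcuacagaacuuug
rno-miR-148b-3p: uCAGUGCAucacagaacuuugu
rno-miR-152-3p: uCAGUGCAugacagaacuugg
All 3 carried the seed CAGUGCA, and of the 724 mature sequences in the RefSeq table only these 3 had it at bases 2 to 8. Counted from 1 at the 5′ end, rno-miR-148b-3p differed from rno-miR-148a-3p by C9U and U10C, and rno-miR-152-3p by C9U, U10G and U20G, over 21 bases compared. The substitutions thus began directly behind the seed. The 5′ arms listed for Mir148a and Mir152 have other seeds, as shown here with the same marking.
rno-miR-148a-5p: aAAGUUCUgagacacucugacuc
rno-miR-152-5p: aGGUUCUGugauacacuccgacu
The deposited values count whole microRNA genes, so reads of the 3′ and 5′ arms are in one sum. The sources used here do not state how reads fitting more than 1 gene, such as Mir148a and Mir148b, were counted. Reads recovered from the deposited values held fractions, at 129944.83 for Mir148a, 6251.5 for Mir148b and 24560.33 for Mir152 in CAF+DEX library 1. Some reads were thus counted in part, and which features shared them was not analysed here.

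The same 7 bases also open other microRNAs, but 1 base earlier, at bases 1 to 7. Among the 724 mature sequences searched these were miR-130a-3p, miR-130b-3p and miR-301b-3p. The most abundant of these 3 is shown for comparison, with those 7 bases in capitals.
rno-miR-130a-3p: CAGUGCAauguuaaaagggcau
Mir130a stood between 36183 and 44080 FPKM over the 12 libraries, while Mir130b (89 to 314 FPKM) and Mir301b (49 to 88 FPKM) were far lower.

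The 3 genes lie on different chromosomes. In the deposited table (build rn7) Mir148a (ENSRNOG00000046475) spans 80333762 to 80333858 of chromosome 4 on the minus strand, Mir148b (ENSRNOG00000035525) spans 134421398 to 134421494 of chromosome 7 on the plus strand, and Mir152 (ENSRNOG00000035539) spans 81832936 to 81833020 of chromosome 10 on the plus strand. By gene names in the RefSeq annotation of GRCr8, Mir148b lies inside Copz1 and Mir152 inside Copz2, a pair of paralogues that encode the zeta subunit of the COPI vesicle coat, and Mir148a lies inside no other gene. Whether the hairpins of Mir148b and Mir152 fall in an intron or an exon was not analysed here. The neighbourhoods resemble each other: within 250 kb stand Nfe2l3 and Cbx3 beside Mir148a, Nfe2 and Cbx5 beside Mir148b, and Nfe2l1 and Cbx1 beside Mir152, members of the NFE2 family of transcription factors and of the HP1 family of chromatin proteins.

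Values are FPKM made by the authors, that is reads per kilobase of hairpin and per 1000000 reads on the listed features. Recovered totals were 3145320 to 3360465 reads per library in CAF+DEX, 2863572 to 3107874 in CAF, 2941725 to 3363795 reads in DEX and 3103016 to 3418568 reads in Control, with 258 to 273 features above 0 per library. Of the 444 features, 293 were above 0 in at least 3 libraries and were tested, all 3 members among them. Mir192, a microRNA typical of hepatocytes, stood at 1277684 to 1487677 FPKM and lay above all 3 members in every library.

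Mir148a was by far the most abundant member, Mir152 was next and Mir148b was lowest, in each of the 12 libraries. Over all libraries Mir148a averaged 479602 ± 33550 FPKM (SD, n = 12), Mir152 94337 ± 7085 FPKM and Mir148b 21298 ± 773 FPKM. The ranges did not come near each other, at 425915 to 544679 FPKM for Mir148a, 86003 to 106293 FPKM for Mir152 and 20459 to 23253 FPKM for Mir148b. Among all features of a library, ranked by FPKM, Mir148a stood between 5th and 7th place, Mir152 between 25th and 28th, and Mir148b between 56th and 60th. Together the 3 genes took 5.11 to 6.39% of the reads in CAF+DEX, 5.38 to 5.91% in CAF, against 5.53 to 5.82% in DEX and 5.51 to 5.98% in Control.

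Depth limited none of these levels. Mir148b, the rarest member, averaged 6544 reads per library, and its counting error alone was at most 1.32% of its value, against at most 0.282% for Mir148a and 0.681% for Mir152. These figures cover counting error only, since the sources used here do not say whether reads were collapsed to molecules. The differences between libraries were larger than that: over the 135 features tested that averaged at least 100 reads, the within-group SD on the log2 scale had a median of 0.11, and was 0.11 for Mir148a (66th smallest of 135), 0.06 for Mir152 (23rd) and 0.06 for Mir148b (15th). Mir148b and Mir152 were thus among the steadier features, and Mir148a stood in the middle.

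**Figure D1:**
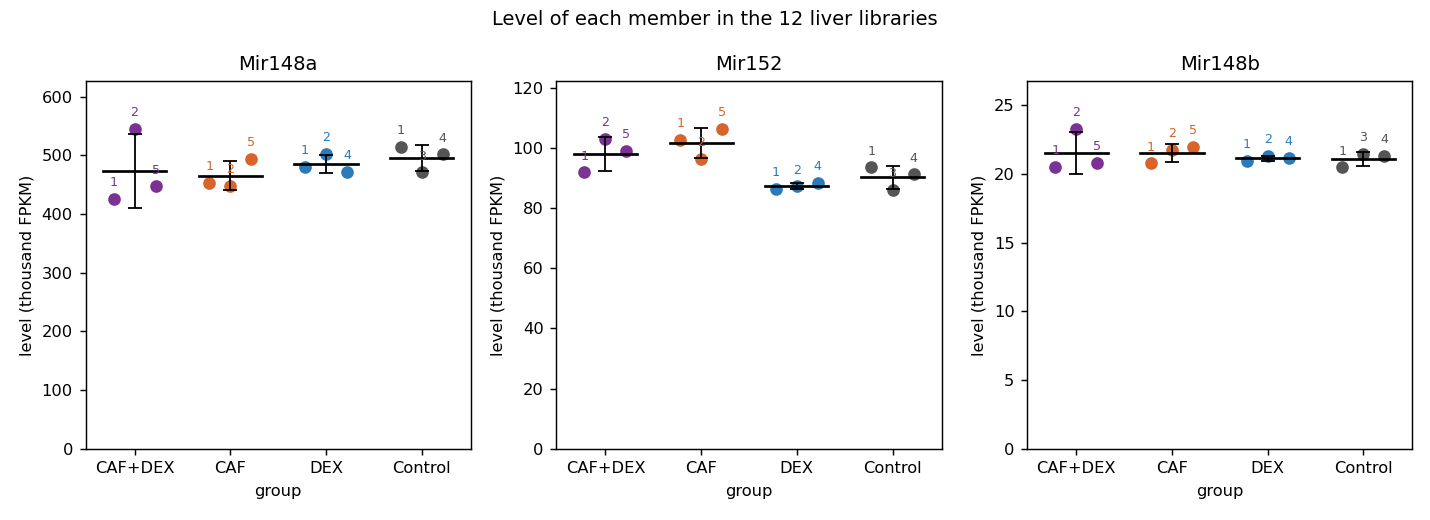
Level of Mir148a, Mir152 and Mir148b on the FPKM scale shown on each y axis, which starts at 0, in the CAF+DEX, CAF, DEX and Control groups (x axis). Each point is 1 library with its number from the column header, and the bar and whiskers are mean and SD of 3 libraries; Mir152 lies higher in the CAF+DEX and CAF groups than in DEX, while Mir148a and Mir148b overlap between all groups.

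Mir152 was the member whose level differed most between the groups. It stood at 91865, 103110 and 99079 FPKM in CAF+DEX libraries 1, 2 and 5, and at 102613, 96434 and 106293 FPKM in CAF libraries 1, 2 and 5. It stood at 86325, 87199 and 88326 FPKM in DEX libraries 1, 2 and 4, and at 93534, 86003 and 91264 FPKM in Control libraries 1, 3 and 4. The 6 libraries with caffeine thus held the higher values, with 1 crossing, since CAF+DEX library 1 lay between Control libraries 1 and 4. The library numbers are those of the column headers and serve only as names.

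Caffeine alone was compared with vehicle. Mir152 averaged 101780 ± 4982 FPKM in CAF and 90267 ± 3864 FPKM in Control (SD, n = 3 each), a ratio of means of 1.13, and all 3 CAF libraries lay above all 3 Control libraries. Of the 293 features tested 6.48% were separated in this direction. The log2 fold change was 0.17 (SE 0.06, 95% confidence interval 0.05 to 0.30, limma, Benjamini-Hochberg adjusted p = 0.206), so Mir152 did not pass the threshold of 0.05, and its unadjusted p of 0.0121 from the same limma fit belongs to a range that 13.0% of the features reached (unadjusted p under 0.05). None of the 3 members passed, and 0.683% of all features did, namely the leukocyte microRNAs Mir142 and Mir146a.

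Mir148a, in contrast, averaged 465217 ± 24885 FPKM in CAF and 495726 ± 22236 FPKM in Control. Its values were 453443, 448404 and 493805 FPKM in CAF, and 514336, 471102 and 501739 FPKM in Control, so that the highest CAF library stood above the lowest Control library. The log2 fold change was -0.09 (SE 0.08, interval -0.27 to 0.09, limma adjusted p = 0.759), with a sign that turned under quantile normalization (0.06). Quantile normalization replaces each value by one set by its rank in the library. Mir148a ranked only 5th to 7th, so its values there follow these places and not its measured level. Mir148b averaged 21490 ± 642 FPKM in CAF and 21073 ± 534 FPKM in Control. Its values of 20760, 21741 and 21969 FPKM in CAF overlapped those of 20459, 21434 and 21324 FPKM in Control, and its log2 fold change was 0.03 (SE 0.06, interval -0.10 to 0.16, limma adjusted p = 0.923). For both, differences within these intervals are not excluded with 3 libraries a group.

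Dextromethorphan alone was compared with vehicle. All 3 members stayed near the Control level, and their groups overlapped. Mir148a had 480240, 502560 and 471756 FPKM in DEX, and its log2 fold change against Control was -0.03 (SE 0.08, interval -0.21 to 0.15), a sign that turned under quantile normalization (0.06). Mir148b had 20920, 21285 and 21171 FPKM in DEX, the narrowest spread of any group with an SD of 187 FPKM, and its log2 fold change was 0.0039 (SE 0.06, interval -0.12 to 0.13; -0.0097 with median-of-ratios scaling). Mir152 averaged 87283 ± 1003 FPKM in DEX and 90267 ± 3864 FPKM in Control (SD, n = 3 each), with a log2 fold change of -0.05 (SE 0.06, interval -0.18 to 0.08). In limma 0 of the 3 members and 0% of all features passed in this comparison; 13 features had an unadjusted p under 0.05, and limma-voom called 0.

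Both drugs together were compared with vehicle. Mir152 averaged 98018 ± 5697 FPKM in CAF+DEX, against 90267 ± 3864 FPKM in Control, a ratio of means of 1.09. Its log2 fold change was 0.12 (SE 0.06, interval -0.01 to 0.25, limma adjusted p = 0.579), and the groups overlapped through CAF+DEX library 1. Mir148a was uneven in CAF+DEX, at 425915, 544679 and 447245 FPKM in libraries 1, 2 and 5, which are the lowest and the highest values of all 12 libraries. Mir148b was also highest in CAF+DEX library 2, at 23253 FPKM, and stood at 20490 and 20771 FPKM in libraries 1 and 5. The log2 fold changes against Control were -0.08 for Mir148a (SE 0.08, interval -0.26 to 0.10; 0.10 with quantile normalization, -0.18 without CAF+DEX library 2, -0.0053 without CAF+DEX library 1) and 0.03 for Mir148b (SE 0.06, interval -0.10 to 0.16; -0.03 without CAF+DEX library 2, 0.06 without CAF+DEX library 1). None of the 3 members and 0% of all features passed in limma; 30 features had an unadjusted p under 0.05, and limma-voom called 0.

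The effect of adding one drug to the other was read from the same fit. With caffeine added to dextromethorphan, all 3 CAF+DEX libraries stood above all 3 DEX libraries for Mir152, a separation in this direction that 4.78% of the features showed. The ratio of means was 1.12 and the log2 fold change 0.17 (SE 0.06, interval 0.04 to 0.29, limma adjusted p = 0.543). Its unadjusted p of 0.0151 in limma is one of those under 0.05 that 7.85% of the features had, and 0 of the 3 members and 0% of the features passed after adjustment (limma-voom 0). This comparison shares no library with CAF against Control, but both use the spread pooled over all 12 libraries, so their p-values are not independent. For Mir148a the log2 fold change was -0.04 (SE 0.08, interval -0.22 to 0.13; 0.04 with quantile normalization) and for Mir148b 0.02 (SE 0.06, interval -0.11 to 0.15; -0.02 with quantile normalization).

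With dextromethorphan added to caffeine, the log2 fold changes of CAF+DEX against CAF were -0.05 for Mir152 (SE 0.06, interval -0.18 to 0.07), 0.02 for Mir148a (SE 0.08, interval -0.16 to 0.19) and -0.0009 for Mir148b (SE 0.06, interval -0.13 to 0.13). All 3 members overlapped between these groups. In limma 0 members and 0% of the features passed; 15 features had an unadjusted p under 0.05, and limma-voom called 0.

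**Figure D2:**
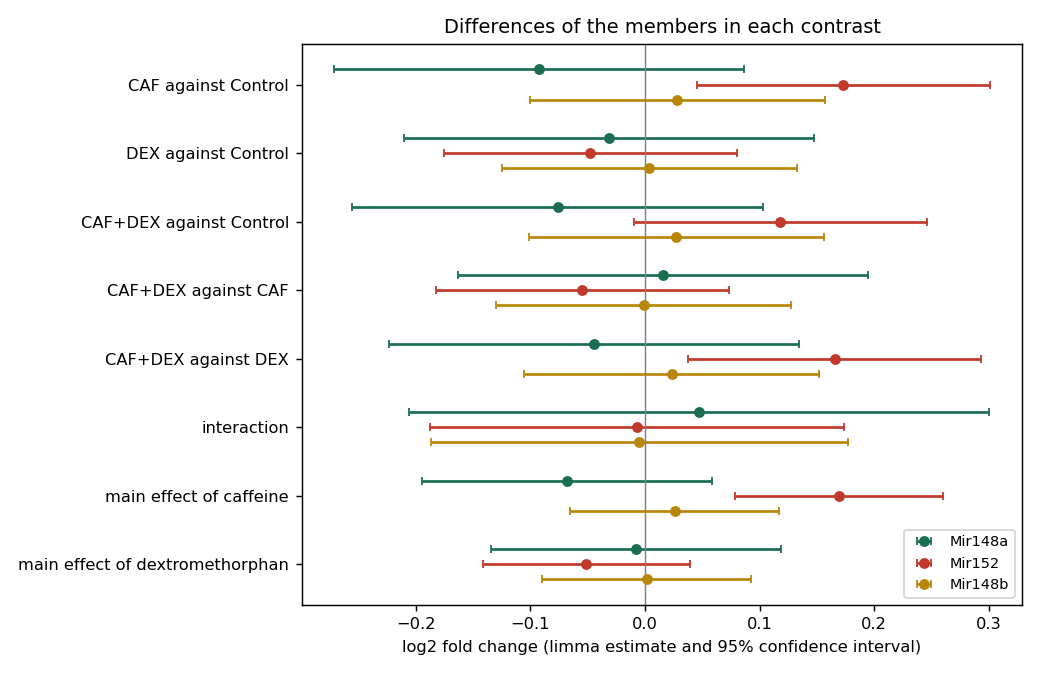
Log2 fold change (x axis) of the 3 members in the 8 contrasts (y axis), with the limma estimate as a point and its 95% confidence interval as a bar. The Mir152 interval lies above 0 in CAF against Control, in CAF+DEX against DEX and in the main effect of caffeine, and every other interval includes 0.

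The interaction term measures, on the log2 scale, how far the pair of drugs departed from the added effects of caffeine and dextromethorphan. It was -0.0071 for Mir152 (SE 0.08, interval -0.19 to 0.17), 0.05 for Mir148a (SE 0.12, interval -0.21 to 0.30; -0.03 with quantile normalization) and -0.0048 for Mir148b (SE 0.08, interval -0.19 to 0.18; 0.0013 with median-of-ratios scaling). None of the 3 members and 0% of the features passed in limma; 16 features had an unadjusted p under 0.05, and limma-voom called 0.

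For the main effect of caffeine, all 6 caffeine-treated libraries (CAF+DEX and CAF) were compared with the 6 others (DEX and Control). Mir152 ranged from 91865 to 106293 FPKM with caffeine (median 100846) and from 86003 to 93534 FPKM without (median 87762). The ratio of means was 1.13, and the log2 difference was 0.17 (SE 0.04, interval 0.08 to 0.26, limma adjusted p = 0.0526), which just missed the threshold. It stood 8th of the 293 features by p. The unadjusted p was 0.00146 in limma, where 14.3% of the features were under 0.05. With adjusted p-values of 0.0396 among features above 0 in all 12 libraries, 0.0413 with median-of-ratios scaling and 0.0321 without CAF+DEX library 1, it passed. With a replicate block of the header numbers the log2 difference was 0.13 (limma adjusted p = 0.622), and over the other alternatives the limma adjusted p ran from 0.0321 to 0.148. Header number 3 occurs only in Control, 4 only without caffeine and 5 only with it. Only numbers 1 and 2 thus hold libraries both with and without caffeine, which limits the block fit. The log2 difference was -0.07 for Mir148a (SE 0.06, interval -0.19 to 0.06; 0.05 with quantile normalization) and 0.03 for Mir148b (SE 0.04, interval -0.07 to 0.12; -0.0049 with quantile normalization). None of the 3 members passed in limma, against 0.683% of the features, again Mir142 and Mir146a.

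The main effect of dextromethorphan was near 0 for all 3 members, at -0.05 for Mir152 (SE 0.04, interval -0.14 to 0.04), -0.0079 for Mir148a (SE 0.06, interval -0.13 to 0.12; 0.05 with quantile normalization) and 0.0015 for Mir148b (SE 0.04, interval -0.09 to 0.09; -0.009 with median-of-ratios scaling). No member and 0% of the features passed in limma; 22 features had an unadjusted p under 0.05, and limma-voom called 0. A moderated F test of any difference between the 4 groups gave F = 6.03 for Mir152 (limma adjusted p = 0.243), 0.521 for Mir148a (limma adjusted p = 0.966) and 0.128 for Mir148b (limma adjusted p = 0.991), and 0.341% of the features, 1 of 293, passed it.

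**Figure D3:**
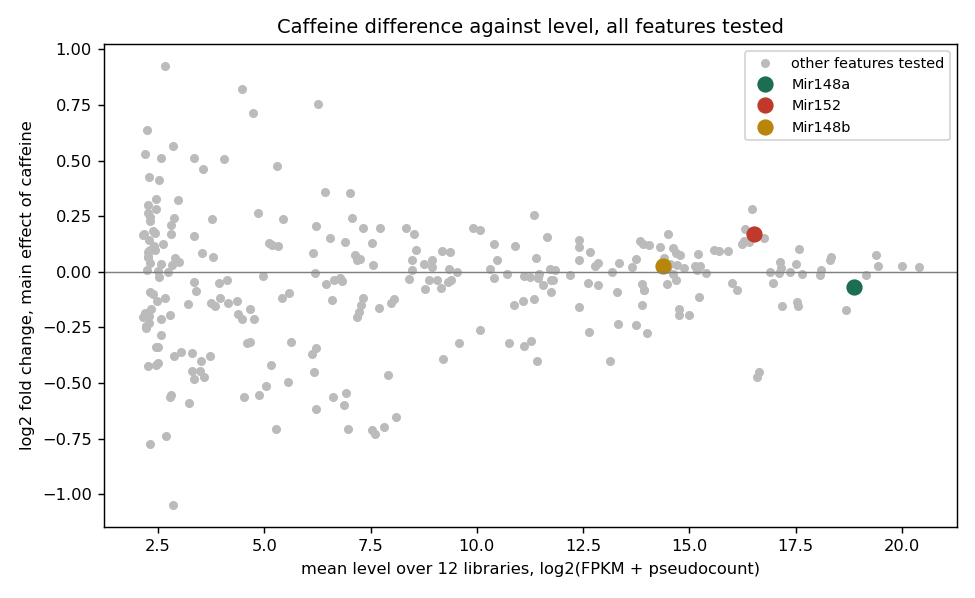
Log2 fold change of the main effect of caffeine (y axis) against the mean level over the 12 libraries as log2(FPKM + pseudocount) (x axis) for all 293 features tested. The coloured points are the 3 members at 0.17 (Mir152), 0.03 (Mir148b) and -0.07 (Mir148a), and the scatter of the other features is wider at low levels than at the levels of the members.

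The ratio between members within one library is not moved by a single scaling factor for that library. Mir152 stood at 0.2157, 0.1893 and 0.2215 of the Mir148a level (FPKM) in CAF+DEX libraries 1, 2 and 5, and at 0.2263, 0.2151 and 0.2153 in CAF libraries 1, 2 and 5. It stood at 0.1798, 0.1735 and 0.1872 in DEX libraries 1, 2 and 4, and at 0.1819, 0.1826 and 0.1819 in Control libraries 1, 3 and 4. Every library with caffeine thus had a higher ratio than every library without, although only narrowly, with a lowest value of 0.1893 with caffeine and a highest of 0.1872 without. Among the 292 other features tested, the ratio to Mir148a was higher in all 6 caffeine libraries in 0.342%, which is 1 feature, Mir152 itself. This separation was looked at after the values were seen and carries no test. After quantile normalization the ratio ran from 0.1848 to 0.2385 with caffeine and from 0.1833 to 0.2166 without, so the libraries overlapped. The mean log2 difference of the ratio was then 0.11 in place of 0.24. Quantile normalization sets values by rank, and Mir148a ranked 5th to 7th in every library, so its measured level does not enter. This overlap thus cannot decide whether the separation depends on the scale.

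The other ratios overlapped between libraries with and without caffeine. Mir148b stood at 0.0427 to 0.0481 of the Mir148a level in CAF+DEX and 0.0445 to 0.0485 in CAF, against 0.0424 to 0.0449 in DEX and 0.0398 to 0.0455 in Control. Mir152 stood at 4.43 to 4.77 times the Mir148b level in CAF+DEX and 4.44 to 4.94 times in CAF, against 4.10 to 4.17 times in DEX and 4.01 to 4.57 times in Control. As a share of the summed FPKM of the 3 genes, Mir152 made up 16.6 ± 1.12% in CAF+DEX, 17.3 ± 0.426% in CAF, 14.7 ± 0.466% in DEX and 14.9 ± 0.0153% in Control (SD, n = 3 each). The remainder was mostly Mir148a, at 79.7% in CAF+DEX, 79.0% in CAF, 81.7% in DEX and 81.7% in Control.

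**Figure D4:**
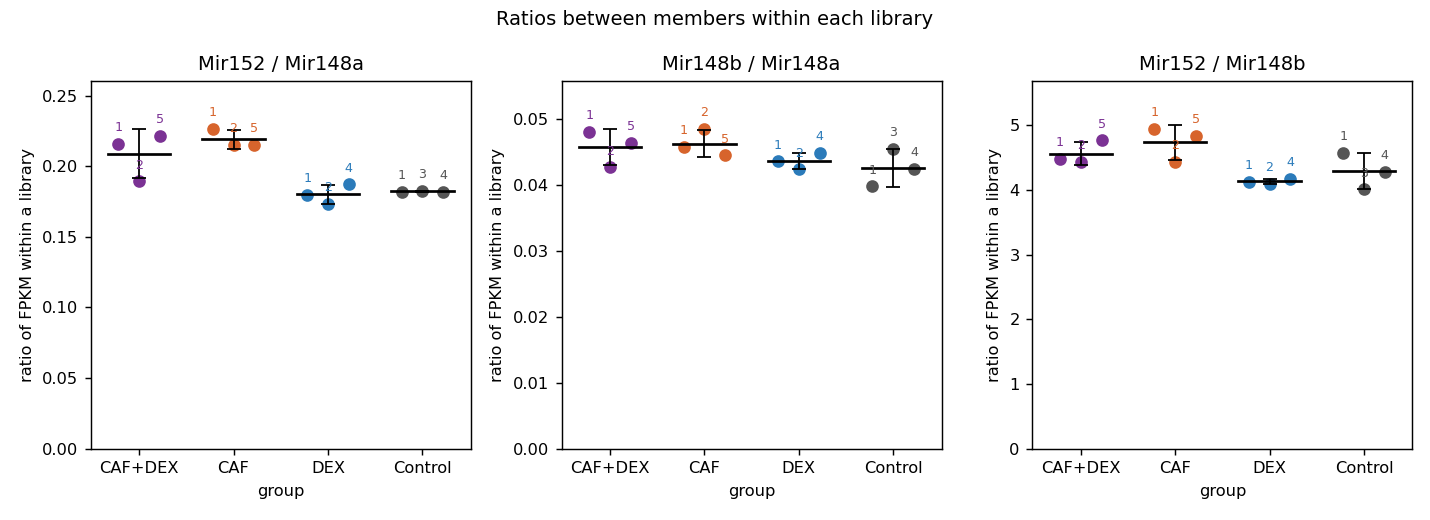
Ratios of FPKM within a library (y axis, from 0) for Mir152 over Mir148a, Mir148b over Mir148a and Mir152 over Mir148b, in the CAF+DEX, CAF, DEX and Control groups (x axis). Points are libraries with their numbers, and bars and whiskers are mean and SD of 3 libraries; in the left panel the CAF+DEX and CAF libraries lie between 0.1893 and 0.2263 and the DEX and Control libraries between 0.1735 and 0.1872.

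Markers of other cells also moved with caffeine, and in whole tissue fewer cells of a type and less RNA per cell cannot be told apart. The 6 leukocyte microRNAs summed to 191008 to 234448 FPKM in CAF+DEX, 170746 to 209357 in CAF, 252967 to 288492 FPKM in DEX and 256370 to 291122 FPKM in Control. In the main effect of caffeine 6 of 6 were lower with a median log2 difference of -0.36, and 2 passed the threshold, Mir146a at -0.47 (SE 0.07, limma adjusted p = 0.00312) and Mir142 at -0.45 (SE 0.08, limma adjusted p = 0.0163). The 3 erythroid microRNAs were lower too, with a median of -0.39 and 0 called, and summed to 10589 to 11747 FPKM in CAF+DEX, 7502 to 14237 in CAF, 11313 to 15213 FPKM in DEX and 12584 to 15141 FPKM in Control. These 2 lists were lower with caffeine where Mir152 was higher.

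In the stellate and mesenchymal list 5 of 6 tested members were higher and 0 called, with a median log2 difference of 0.18 against -0.0078 over all features. These were Mir214 (0.205, SE 0.244), Mir10b (0.198, SE 0.347), Mir218-2 (0.188, SE 0.102), Mir199a2 (0.168, SE 0.111) and Mir145 (0.084, SE 0.076). Mir143, the most abundant row of the list, did not share the lean (-0.008, SE 0.095). The 7 rows of the list summed to 223144 to 306465 FPKM in CAF+DEX, 204665 to 282250 in CAF, 254566 to 263988 FPKM in DEX and 233073 to 261727 FPKM in Control, and 1 row, Mir218-1, was at 0 in every library. The 5 hepatocyte rows summed to 2718937 to 3072421 FPKM in CAF+DEX, 2841220 to 3082850 in CAF, 2774262 to 2825380 FPKM in DEX and 2856809 to 3042090 FPKM in Control, with a median of 0.01. Of these rows 4 were higher with caffeine and 1 was lower, Mir455 at -0.27 (SE 0.11, limma adjusted p = 0.255). Mir885 of the hepatocyte list had no row. The 3 biliary rows had a median of -0.03 with summed ranges of 7255 to 15754 FPKM in CAF+DEX, 8121 to 12818 in CAF, 9857 to 13402 FPKM in DEX and 8560 to 13961 FPKM in Control. Mir200a and Mir200c of the biliary list had no row. Mir126a, the 1 endothelial row, stood low, at 31 to 40 FPKM in CAF+DEX, 36 to 68 in CAF, 20 to 45 FPKM in DEX and 40 to 49 FPKM in Control. The log2 difference from these low values was 0.24 (SE 0.22, limma adjusted p = 0.756). No other marker row was at 0 in all libraries. The part of these cells in the Mir152 values was not tested.

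Other microRNAs reported, mostly in human cells, to act on PXR, HNF4A, VDR or P450 transcripts were taken as a list of 9, which matched 10 rows of the table, all tested. Of the 10, 0 passed in either direction in any of the 8 contrasts. Of all 293 features tested, 0.683% passed in CAF against Control and in the main effect of caffeine, and 0% in the other contrasts. The median log2 fold change was -0.02 in CAF against Control (5 higher, 5 lower), -0.01 in DEX against Control (4 higher, 6 lower), -0.06 in CAF+DEX against Control (3 higher, 7 lower) and -0.06 in the main effect of caffeine (4 higher, 6 lower), where the median of all features lay between -0.0089 and 0.0039. Mir103a1 and Mir103a2 give one mature microRNA and are uncertain as separate rows.

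Mir27b, which acts on CYP3A4 and CYP1B1 transcripts in human cells, averaged 195502 ± 14176 FPKM in CAF+DEX, 208046 ± 5395 in CAF, 179561 ± 3788 in DEX and 196406 ± 5182 in Control (SD, n = 3 each). Its main effect was 0.10 for caffeine (SE 0.04, limma adjusted p = 0.253) and -0.11 for dextromethorphan (SE 0.04, limma adjusted p = 0.521). Mir24-2, whose microRNA acts on HNF4A in human cells, averaged 22584 ± 439 FPKM in CAF+DEX, 21853 ± 1185 in CAF, 21220 ± 547 in DEX and 21350 ± 217 in Control. Mir34a, a p53 target that also acts on HNF4A in human cells, averaged 13605 ± 1173 FPKM in CAF+DEX, 16649 ± 3838 in CAF, 16900 ± 2285 in DEX and 19795 ± 5097 in Control. Its spread was wide and its main effect of caffeine was -0.28 (SE 0.13, limma adjusted p = 0.34). Mir378b, matched by its number, averaged 449 ± 40 FPKM in CAF+DEX, 467 ± 33 in CAF, 475 ± 8 in DEX and 464 ± 68 in Control. The member furthest from 0 was Mir130b, at -0.73 (SE 0.20, limma adjusted p = 0.0909) in the main effect of caffeine, from an average of 52.9 reads per library.

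Likeness across the libraries was measured as the SD of the log2 ratio of 2 features over the 12 libraries, a smaller SD meaning a steadier ratio, among the 134 other features tested with at least 100 reads on average. Mirlet7i (SD 0.08), Mir190 (0.08) and Mir148b (0.08) had the steadiest ratio to Mir148a, and Mir27b (0.08), Mir26b (0.09) and Mir101-2 (0.10) to Mir152. Mirlet7f2 (0.04), Mir26b (0.05) and Mirlet7g (0.05) were nearest to Mir148b. The family did not order by seed: Mir152 was 38th among the features nearest to Mir148a, with an SD of 0.14, and Mir148a was 45th among those nearest to Mir152. Mir148b was 3rd for Mir148a and 5th for Mir152 (SD 0.10), while from its own side Mir148a was 13th and Mir152 33rd.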

How the data were processed

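Per the labels' protocols, liver RNA was made into QIAseq microRNA libraries with molecular barcodes. Whether the authors collapsed reads by barcode is not stated in the sources used. The submitters' processing notes name cutadapt 3.7, STAR 2.7.11b, featureCounts of Subread 2.0.6 and build rn7. The deposited values are FPKM per gene, made by the authors, for 444 features of 46 to 141 bases (feature positions and lengths per the file headers), and FPKM times kilobases summed to 1000000 in each library. Reads were recovered as the total for which all values are multiples of 0.01 read, and 50.5 to 58.3% of the features above 0 then held whole reads in a library (within 1e-06 read). Column headers gave each library's group but not its titled sample.

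Log2(FPKM + 3.80), with the 10th percentile of values above 0 as pseudocount, was fitted in 1 limma-trend model (limma 3.58.1, R 4.3.3) over all 12 libraries and 4 group means, with 8 contrasts, on the 293 features above 0 in at least 3 libraries; p-values were Benjamini-Hochberg adjusted over these. Alternatives were other pseudocounts, filters, scalings, limma-voom, only the groups compared, leaving out each library and, added after seeing the data, a block of the header numbers and the member ratio after quantile normalization. Named features were the members, the listed P450 regulators (values for 4; Mir130b was added after its value was seen), those sharing the seed letters, and the 3 with the steadiest log2 ratio to Mir148a and Mir152. The steadiest ratios to Mir148b, the genes with the same 7 bases at 1 to 7 and the leukocyte microRNAs called were added after their values were seen. The members, lists and tests were chosen with earlier results of these data known.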

Additional observations from a re-analysis of the deposited data

How the results depend on the processing

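The sample numbers of the titles could not be used for pairing because the columns carry other numbers (such as 1, 2 and 5), and no label says that either set of numbers pairs rats. Deviations of libraries from their group means were correlated across features, for pairs of libraries from different groups. The correlation was over 0.1 in 2 of 11 pairs with a shared header number and in 13 of 43 pairs without. It ran from -0.332 to 0.448 (median 0.076) with a shared number and from -0.466 to 0.67 (median -0.02) without. With so few pairs, and deviations that sum to 0 in each group, these values cannot decide whether the header numbers pair rats. A replicate block of the header numbers, added after seeing the data, gave Mir152 0.1266 in the main effect of caffeine (limma adjusted p = 0.622) and 0.1096 in CAF against Control, and turned Mir148b to -0.0053 in DEX against Control, 0.0044 in the interaction and -0.0031 in the main effect of dextromethorphan, and Mir152 to 0.0341 in the interaction. With this block the count of features past the threshold was 0 in CAF against Control, 1 in DEX against Control, 0 for the main effect of caffeine and 0 for any difference between the 4 groups. Only header numbers 1 and 2 occur both with and without caffeine, and the block fits Control library 3, the only one with that number, exactly. The block also leaves fewer residual degrees of freedom, so it is a weak check of the caffeine difference.

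None of the 3 members passed the threshold in any contrast as first fitted. The alternatives were a pseudocount of 1 FPKM or 10 times larger, no filter, a stricter filter (above 0 in all 12 libraries), quantile normalization, median-of-ratios scaling, scaling to the total without the members, limma-voom on recovered reads, only the groups compared and leaving out each library. "Only the groups compared" could not be run for the interaction and the main effects, which need all 4 groups. Of the alternative log2 fold changes of the members, the block included, 467 kept direction and side of the threshold, 49 changed sign and 3 passed it, and the 63 alternative F values stayed on their side. Those 3 were all Mir152 in the main effect of caffeine, at 0.1693 with the stricter filter (adjusted p 0.0396), 0.1895 with median-of-ratios scaling (0.0413) and 0.1923 without CAF+DEX library 1 (0.0321); without single libraries it ran from 0.1507 to 0.1923 with limma adjusted p from 0.0321 to 0.148. The sign of Mir152 held in all alternatives except in the interaction. Many of the signs counted here could not change. Leaving out a library of a group outside a pairwise contrast returns the same estimate, as do the filters and only the groups compared. For Mir152 in CAF against Control these settings all gave 0.1729, and only the adjusted p-values moved.

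Quantile normalization turned Mir148a to 0.061 in CAF against Control, 0.061 in DEX against Control, 0.0967 in CAF+DEX against Control, 0.0357 in CAF+DEX against DEX, -0.0254 in the interaction, 0.0484 in the main effect of caffeine and 0.0484 in that of dextromethorphan. It turned Mir148b to -0.0248 in CAF+DEX against DEX and -0.0049 in the main effect of caffeine. Median-of-ratios scaling turned Mir148b to -0.0097 in DEX against Control, 0.0013 in the interaction and -0.009 in the main effect of dextromethorphan. Leaving out single libraries gave ranges across 0 for Mir148b of -0.0173 to 0.0163 in DEX against Control, -0.0303 to 0.0609 in CAF+DEX against Control, -0.0585 to 0.0327 in CAF+DEX against CAF, -0.0342 to 0.057 in CAF+DEX against DEX, -0.0624 to 0.0289 in the interaction, -0.003 to 0.0426 in the main effect of caffeine and -0.0273 to 0.0183 in that of dextromethorphan. For Mir148a they were -0.0907 to 0.0867 in CAF+DEX against CAF, -0.1512 to 0.0262 in CAF+DEX against DEX, -0.0592 to 0.1182 in the interaction and -0.0611 to 0.0276 in the main effect of dextromethorphan, and for Mir152 -0.0455 to 0.0388 in the interaction. All these values are log2 fold changes. Those of Mir148a after quantile normalization follow its rank, 5th to 7th place in a library, and not its measured level. The cause of the other changes was not tested.

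The counts of all features past the threshold were small and moved. In CAF against Control the 2 became 0 with only the groups compared and 4 with quantile normalization, and 0 to 10 without single libraries (0 without Control 1, Control 3, CAF 2 or CAF 5, 1 without DEX 2, 4 without CAF+DEX 1, 5 without Control 4, 10 without CAF 1). In CAF+DEX against Control the 0 became 2 with the larger pseudocount, 2 with no filter and 1 with quantile normalization. In CAF+DEX against DEX it became 1 with quantile normalization and 0 to 1 without single libraries (1 without DEX 4 or Control 3). It was 0 to 1 likewise in DEX against Control (1 without Control 3) and in the interaction (1 without DEX 4). For the main effect of caffeine the 2 became 5 with the larger pseudocount, 0 with no filter, 10 with the stricter filter, 5 with quantile normalization, 11 with median-of-ratios scaling, 4 with limma-voom and 1 to 10 without single libraries (10 without CAF 1, 8 without CAF+DEX 1, 6 without CAF+DEX 2, 1 without CAF 2 or Control 3). For any difference between the 4 groups the 1 became 0 with no filter and 0 to 4 without single libraries (4 without CAF 1, 2 without CAF+DEX 1 or DEX 4, 0 without CAF+DEX 5, CAF 2, CAF 5, DEX 1 or DEX 2).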
